A study of Mus musculus with 6 samples.

Results

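The cyclic AMP phosphodiesterases of HL-1 cells were described through 10 genes, Pde4a, Pde4b, Pde4c, Pde4d, Pde3a, Pde3b, Pde7a, Pde7b, Pde8a and Pde1c, out of 32739 genes counted. They were taken by symbol, and all 10 were found. After the filter on low counts 8 of the 10 remained among 12047 tested genes, and Pde4c and Pde3a fell below it. HL-1 is a mouse line derived from atrial cardiomyocytes, grown here in Claycomb medium. Messenger RNA was sequenced from 3 libraries of cells given vehicle and 3 libraries of cells given 5 µM BRL37344 (BRL), a β3-adrenergic agonist by the series' own naming. By the series' design all 6 libraries followed hypoxia for 6 h and then reoxygenation for 1 h, a culture model of ischaemia and reperfusion, whereas the sample descriptions read ReOx7h and do not say how those hours divide, so no comparison with untreated oxygenated cells was made. When BRL was added is not stated in the labels. The HL-1 line has a single origin, and separate cultures are not stated for the replicates, so p-values measure the spread between these libraries, which may be technical.

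Cyclic AMP is the messenger made by adenylyl cyclases when a receptor activates Gs, and phosphodiesterases are the enzymes that degrade it. In cardiomyocytes they keep the signal local, because individual phosphodiesterases sit beside particular receptors, channels and calcium-handling proteins. The PDE4 enzymes hydrolyse cyclic AMP selectively and are inhibited by rolipram, and each PDE4 gene makes several enzyme forms from separate promoters. PDE3 enzymes bind cyclic AMP tightly and are slowed by cyclic GMP, PDE7 and PDE8 are cyclic AMP-selective enzymes of high affinity, and PDE1 enzymes need calcium and calmodulin and hydrolyse both cyclic AMP and cyclic GMP.

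Pde4b and Pde4d were the members higher with BRL, and promoter windows are shown for them and for Pde4a, the other abundant PDE4 gene, which did not pass the test. The windows run from 250 bases before to 50 bases after a RefSeq start site, on build GRCm38.p6, which is not the build of the deposited counts (NCBIM37). They were searched for TGACG on either strand (printed CGTCA where it lies on the other strand), the core of the site bound by the cyclic AMP-responsive factor CREB, and for the full palindrome TGACGTCA, which contains it. Capitals mark a match, and all 3 windows lie on the + strand. The first Pde4b window is chr4:102421305-102421604, the Pde4d window is chr13:108653927-108654226 and the second Pde4a window is chr9:21183851-21184150.
Pde4b, first window: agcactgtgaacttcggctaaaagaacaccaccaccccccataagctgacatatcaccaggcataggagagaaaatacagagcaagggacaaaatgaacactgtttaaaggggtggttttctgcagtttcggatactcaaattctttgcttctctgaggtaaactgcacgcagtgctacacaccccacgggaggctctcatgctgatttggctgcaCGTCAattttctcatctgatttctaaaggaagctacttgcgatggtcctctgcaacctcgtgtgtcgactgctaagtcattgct
Pde4d: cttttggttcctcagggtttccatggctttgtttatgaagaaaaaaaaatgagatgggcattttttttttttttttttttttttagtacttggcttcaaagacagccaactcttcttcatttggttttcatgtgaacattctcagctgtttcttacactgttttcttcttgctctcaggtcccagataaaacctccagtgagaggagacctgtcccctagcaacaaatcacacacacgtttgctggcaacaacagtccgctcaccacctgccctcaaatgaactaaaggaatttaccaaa
Pde4a, second window: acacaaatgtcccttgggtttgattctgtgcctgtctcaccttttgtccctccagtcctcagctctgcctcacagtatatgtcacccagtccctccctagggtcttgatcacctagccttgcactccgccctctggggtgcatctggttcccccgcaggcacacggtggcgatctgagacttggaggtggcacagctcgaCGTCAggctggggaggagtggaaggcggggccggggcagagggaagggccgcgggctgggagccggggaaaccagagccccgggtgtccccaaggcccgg

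The first Pde4b window holds CGTCA with its first base at −34 from the start site, the second Pde4a window holds it at −50, and no match lies in the Pde4d window. For Pde4b and Pde4a the windows printed are those with a match, and the other 3 Pde4b windows and the other 2 Pde4a windows hold none. RefSeq windows were at hand for 7 of the 10 genes, 14 windows in all, and 3 of these windows (21.4%) hold TGACG or CGTCA, the third being the Pde8a window. Of 32851 windows of the same length over all genes, 20.8% hold it, so the share among the phosphodiesterase windows is near that of all windows. The full palindrome TGACGTCA is in 1.79% of all windows and in none of the 14. The counts are per gene and do not say which start site was used.

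Total expected counts were 4440168 to 5060049 in the vehicle libraries and 6812810 to 8332472 in the BRL libraries, so depth did not overlap between the groups. A count of 3, the floor below which a gene counts as not detected, corresponds to 0.367 to 0.673 counts per 1000000 (CPM, scaled to TMM library sizes) and covers counting error only. BRL replicate 1 stood apart, with 5.03% of its counts from mitochondrially encoded genes against 16.5% to 21.9% in the other 5 libraries. All 8 cardiomyocyte markers were detected in every library, and their summed level was 7224 to 7982 CPM in vehicle and 4071 to 5587 CPM in BRL. Most of that difference lay in Myh6, at 3002 to 3602 CPM in vehicle and 979 to 1611 CPM in BRL (edgeR adjusted p = 0.0117). None of the other 7 passed. Actc1 and Myl4 were lower in every BRL library than in any vehicle library. Actc1 measured 774 to 894 CPM in vehicle and 253 to 565 CPM in BRL (log2 fold change −0.89, edgeR adjusted p = 0.107). Myl4 measured 439 to 472 CPM in vehicle and 257 to 373 CPM in BRL (−0.44, edgeR adjusted p = 0.138). Tnnt2, Nppa, Ryr2 and Myl7 had log2 fold changes of −0.05, −0.06, −0.15 and −0.16. Tnni3 was higher in every BRL library, at 236 to 254 CPM against 213 to 221 CPM. The 4 smooth muscle markers, mainly Acta2 and Tagln, summed to 2988 to 3361 CPM in vehicle and 1220 to 2572 CPM in BRL. None of them passed (edgeR adjusted p of 0.164 for Acta2, 0.304 for Tagln and 0.746 for Cnn1), and Myh11 was below the filter at no more than 0.282 CPM. Markers of fibroblasts, endothelium and leukocytes summed to at most 5.47, 3.24 and 4.64 CPM in any library, with Dcn, Ptprc and Lyz2 at 0 throughout. The part of these marker differences in the phosphodiesterase results was not tested, and in bulk RNA fewer cells of a type and less RNA per cell cannot be told apart.

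The comparison asked which phosphodiesterase transcripts differed between agonist and vehicle in reoxygenated cells. Of the 8 tested genes, Pde4b and Pde4d rose and Pde1c fell, by edgeR's quasi-likelihood test at an adjusted p under 0.05 over all genes; 4 of the 8 had an unadjusted p under 0.05, Pde8a being the other, as did 22.4% of all tested genes. Among all tested genes 1.01% rose and 1.79% fell by this rule. The median log2 fold change was 0.13 over the 8 phosphodiesterases and 0.005 over all tested genes. Every BRL library lay above every vehicle library for Pde4b, Pde4d and Pde8a, and below for Pde1c, where 16.0% and 15.5% of all tested genes had such an order in either direction.

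**Figure D1:**
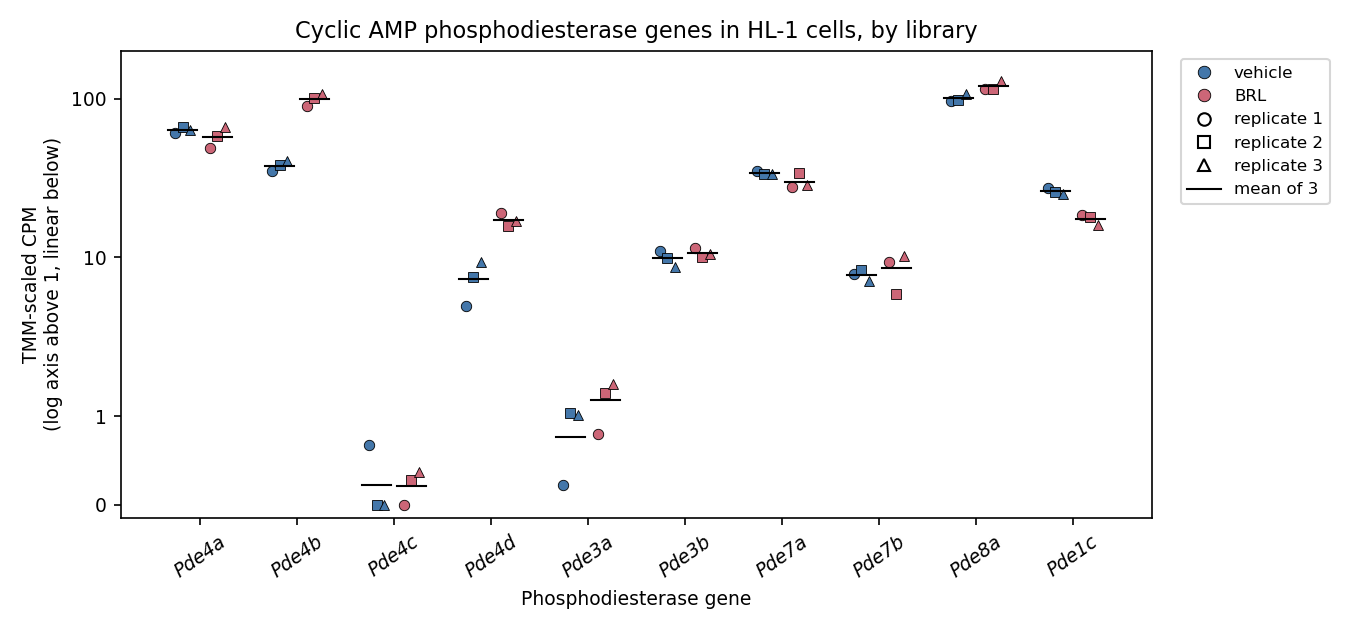
Level of each phosphodiesterase gene (TMM-scaled CPM, axis logarithmic above 1 and linear below) in the 3 vehicle and 3 BRL libraries, with marker shapes for replicates and bars for group means. Pde4b (34.8 to 40.3 CPM in vehicle, 89.2 to 106 CPM in BRL) and Pde4d separate upward and Pde1c downward. Pde8a also separates upward, but by little (96.2 to 108 CPM in vehicle, 114 to 129 CPM in BRL). The groups of Pde4a, Pde3b, Pde7a and Pde7b overlap.

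Pde4b, a cyclic AMP-selective phosphodiesterase linked in mouse heart to the control of L-type calcium current, measured 34.8, 38.4 and 40.3 CPM in vehicle replicates 1, 2 and 3 and 89.2, 101 and 106 CPM in BRL replicates 1, 2 and 3. The lowest BRL library was thus well above the highest vehicle library, and BRL replicate 1 was the lowest of its group. The group means were 37.8 ± 2.83 and 98.7 ± 8.65 CPM (SD, n = 3 each), a ratio of 2.61. The log2 fold change was 1.38 ± 0.11 (SE, edgeR adjusted p = 0.00169). It passed in all 14 alternative processings, with log2 fold changes of 1.33 to 1.45.

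Pde4d encodes the PDE4 enzyme found in complexes with β-adrenergic receptors, β-arrestin and the ryanodine receptor of the sarcoplasmic reticulum. It measured 4.93, 7.55 and 9.32 CPM in the vehicle libraries, from 22 to 46 counts, and 18.9, 15.8 and 16.9 CPM in the BRL libraries, from 112 to 143 counts. The groups did not overlap, and BRL replicate 1 was here the highest. Means were 7.27 ± 2.21 and 17.2 ± 1.60 CPM, a ratio of 2.36, or 1.23 ± 0.22 on the log2 scale (SE, edgeR adjusted p = 0.0293). It did not pass without vehicle replicate 1, 2 or 3 or BRL replicate 2 or 3 (adjusted p of 0.0936, 0.149, 0.0755, 0.065 and 0.0678), and without BRL replicate 1 it did (adjusted p = 0.0019). Passing was far more frequent without BRL replicate 1: over all genes 1240 rose and 1315 fell, against 122 and 216 with all 6 libraries.

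The 2 genes that rose were also set against each other. The ratio of Pde4b to Pde4d in CPM was 7.05, 5.08 and 4.33 with vehicle and 4.71, 6.38 and 6.30 with BRL, so the groups overlapped (exact permutation test, two-sided p = 0.9, n = 3 each, with 0.1 the smallest p possible).

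Pde4a, the third PDE4 gene with appreciable counts, measured 60.5, 66.3 and 63.4 CPM in vehicle and 48.6, 57.7 and 65.9 CPM in BRL. The groups overlapped, with BRL replicate 1 lowest, and the log2 fold change was −0.14 ± 0.13 (SE, edgeR adjusted p = 0.542). Pde4c was at the detection limit: it had 3.01, 0 and 0 counts in vehicle and 0, 2 and 3 counts in BRL, and no difference was detectable at this depth. Both genes had expected counts that were not all whole numbers, though barely so.

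The PDE3 genes encode the cyclic GMP-inhibited enzymes, of which PDE3A acts at the sarcoplasmic reticulum calcium pump in mouse heart. Pde3a was near the floor in these cells, with 1, 5 and 5 counts in vehicle and 6, 10 and 13 counts in BRL, or 0.224 to 1.05 CPM against 0.794 to 1.59 CPM, and was not tested. Pde3b, the form known best from insulin signalling in fat cells, was clearly detected. It measured 10.99, 9.86 and 8.72 CPM in vehicle and 11.5, 10.1 and 10.5 CPM in BRL, which overlap (log2 fold change 0.12 ± 0.17, SE, edgeR adjusted p = 0.712).

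Pde7a and Pde7b encode cyclic AMP-selective enzymes that rolipram does not block. Pde7a measured 34.98, 33.7 and 33.6 CPM in vehicle and 27.7, 33.8 and 28.5 CPM in BRL, so that BRL replicate 2 lay within the vehicle range (log2 fold change −0.19 ± 0.12, SE, edgeR adjusted p = 0.379). Pde7b measured 7.85, 8.39 and 7.09 CPM in vehicle and spread more widely in BRL, at 9.40, 5.91 and 10.3 CPM. Its groups overlapped (0.14 ± 0.25, adjusted p = 0.782), and its sign turned to −0.02 without BRL replicate 3.

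Pde8a, a high-affinity enzyme insensitive to the general inhibitor IBMX, had the highest level of the 10 genes. It measured 96.2, 97.3 and 108 CPM in vehicle and 115, 114 and 129 CPM in BRL. Every BRL library was above every vehicle library, but by little, and the gene did not pass (log2 fold change 0.25 ± 0.10, SE, edgeR adjusted p = 0.188). Without BRL replicate 1 it passed, at 0.28 on the log2 scale with adjusted p = 0.0258. In that setting 1240 genes rose and 1315 fell, against 122 and 216 with all 6 libraries.

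Pde1c, a calcium- and calmodulin-dependent enzyme that also degrades cyclic GMP, was the member that fell. It measured 27.4, 25.8 and 25.1 CPM in vehicle and 18.4, 18.02 and 16.0 CPM in BRL, with no overlap and little spread in either group. Means were 26.1 ± 1.14 and 17.5 ± 1.29 CPM (SD, n = 3 each), a log2 difference of −0.58 ± 0.12 by edgeR (SE, adjusted p = 0.0469). The call lay at the threshold: DESeq2 gave an adjusted p of 0.074 and limma-voom 0.0503, leaving out mitochondrially encoded genes ended it, and it was lost without vehicle replicate 1, 2 or 3 or BRL replicate 2 or 3 (0.182, 0.205, 0.203, 0.107 and 0.0983). Without BRL replicate 1, where calls over all genes were far more frequent (1240 rose and 1315 fell), its adjusted p was 0.00381. Its log2 fold change stayed between −0.61 and −0.52 in all 14 alternatives.

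**Figure D2:**
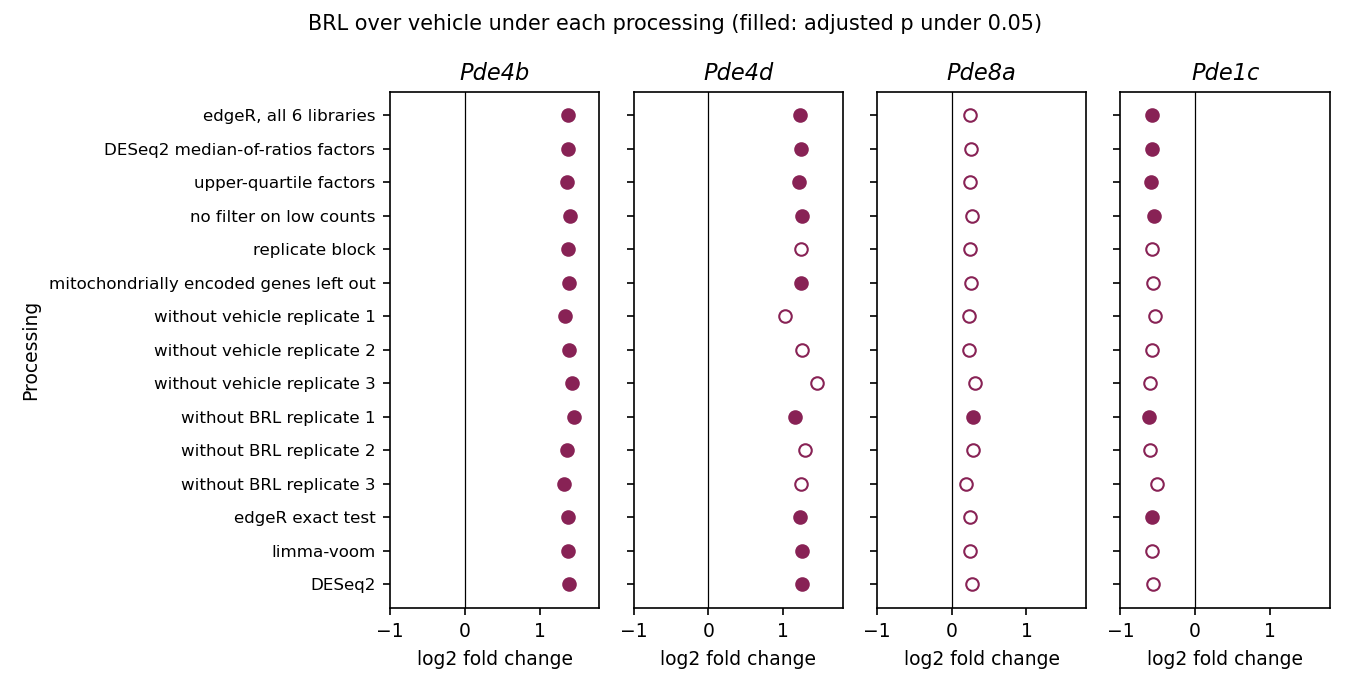
Log2 fold change of Pde4b, Pde4d, Pde8a and Pde1c (x axis) under the reported processing and 14 alternatives (y axis), with filled points at an adjusted p under 0.05. Pde4b is filled throughout, between 1.33 and 1.45, whereas Pde4d, Pde8a and Pde1c keep their side of 0 but change fill.

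Levels of different genes were compared per length, with the RSEM fraction of transcripts times 1000000 (TPM). TPM carry no TMM factor, which was 1.11 for BRL replicate 1 and 0.947 to 1.01 for the other libraries. The TPM of a gene are therefore less comparable between libraries than its CPM. In vehicle the order was Pde8a (47.1 ± 2.03 TPM, SD, n = 3), Pde4a (22.1 ± 0.14), Pde7a (18.5 ± 2.44), Pde4b (14.9 ± 0.91) and Pde1c (7.13 ± 0.42), and every library of each lay above every library of the next. Pde7b, Pde4d and Pde3b followed at 3.43 ± 0.85, 3.23 ± 1.03 and 3.06 ± 0.94 TPM with overlapping libraries, then Pde3a (0.458 ± 0.160) and Pde4c (0.110 ± 0.191). In BRL Pde4b came second at 42.3 ± 3.10 TPM, below Pde8a at 56.4 ± 10.3 TPM, with 1 of the 3 Pde8a libraries inside the Pde4b range. Within each BRL library Pde8a was above Pde4b, at 64.4, 44.8 and 59.9 TPM against 45.3, 39.15 and 42.3 TPM. Pde4d lay next after Pde7a at 8.82 ± 3.28 TPM, above every Pde1c library (5.26 ± 1.19 TPM). Pde4a and Pde7a, at 21.2 ± 2.85 and 17.6 ± 4.91 TPM, overlapped each other in BRL.

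The PDE4 share of the phosphodiesterase transcripts was higher in every BRL library than in any vehicle library. The 4 PDE4 genes held 32.0%, 33.3% and 35.6% of the summed per-length level of the 10 genes in vehicle replicates 1, 2 and 3 and 44.2%, 46.3% and 46.4% in the BRL replicates. The groups did not overlap, and the means of 33.6% ± 1.82 and 45.6% ± 1.28 (SD, n = 3 each) differed by 12.0 percentage points (exact permutation test, two-sided p = 0.1, the smallest that 3 against 3 allows, and 0.2 after adjustment over the 14 shares compared). With BRL replicate 1 left out the rise was 12.7 percentage points. In percentage points of the 10 genes, the share of Pde4b changed by 14.3, Pde4d by 2.75, Pde4a by −5.02 and Pde4c by −0.012. The rise in the PDE4 share thus lay mainly in Pde4b and is not a result separate from that gene's. Shares are ratios within a library and so do not depend on its total. The part in these shares of other differences of BRL replicate 1, the library with the low mitochondrial share, was not tested.

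Within the PDE4 genes Pde4a held the largest share in every vehicle library and Pde4b in every BRL library. Pde4b held 36.2%, 37.60% and 37.3% of the PDE4 level in vehicle and 56.5%, 61.3% and 57.9% in BRL, and Pde4a held 56.9%, 55.0% and 52.4% against 27.8%, 28.1% and 31.9%. Both pairs of groups were apart (exact permutation p = 0.1 each, adjusted p = 0.2), by 21.6 percentage points upward for Pde4b and −25.5 for Pde4a. The 2 shares are parts of the same sum and so are not separate results. Pde4a itself was at 22.1 ± 0.14 TPM in vehicle and 21.2 ± 2.85 TPM in BRL. The 2 scales differ for BRL replicate 1, where Pde4a was above every vehicle library in TPM (22.3) but lowest of the 6 libraries in CPM (48.6). The ratio of Pde4b to Pde4a per length was 0.677 ± 0.038 in vehicle and 2.01 ± 0.18 in BRL. Pde4d held 6.06%, 7.45% and 10.4% in vehicle and 15.7%, 10.4% and 9.87% in BRL, and those groups overlapped (exact permutation p = 0.2, adjusted p = 0.28). Pde1c went from 5.94% ± 0.34 to 3.30% ± 0.44 of all 10 genes (exact permutation p = 0.1, adjusted p = 0.2). The summed level of the 10 genes was itself 120 ± 1.56 TPM in vehicle and 159 ± 21.9 TPM in BRL. That lowers the share of any gene that did not rise, and the ratio of Pde1c's own CPM means was 0.670.

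**Figure D3:**
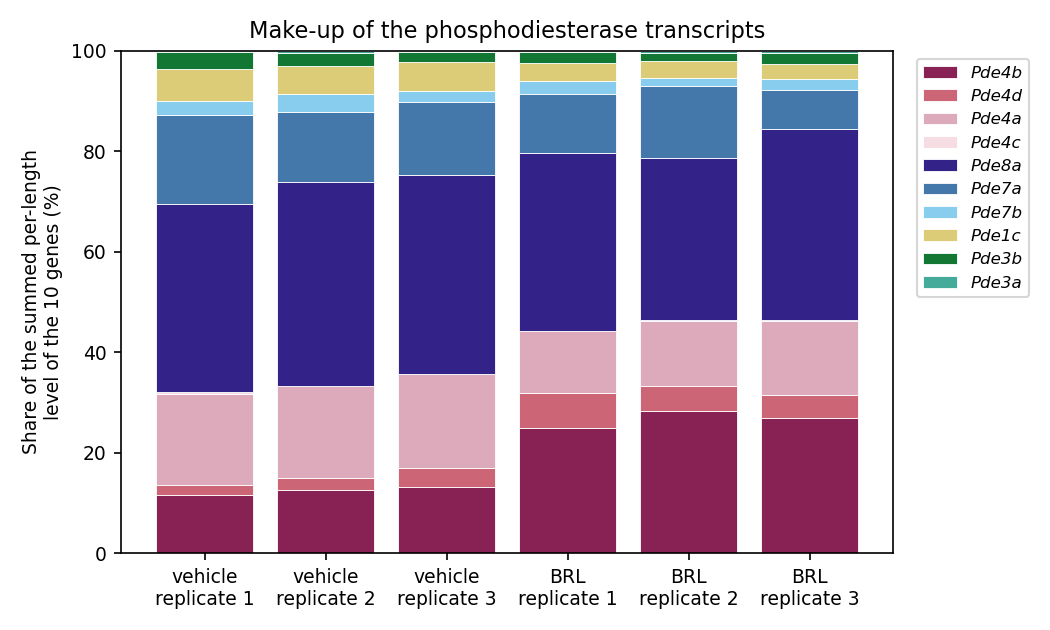
Share of each gene (percent, stacked bars from 0 to 100) in the summed per-length level of the 10 phosphodiesterase genes, for each of the 6 libraries. Pde4b takes 11.6% to 13.3% in vehicle and 25.0% to 28.4% in BRL, Pde8a stays the largest segment in every library at 32.4% to 40.5%, and Pde3a and Pde4c are hardly visible.

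Summed over genes in CPM, the PDE4 genes went from 109 ± 6.81 to 173 ± 16.3 CPM, a ratio of 1.60, and the other 6 genes from 179 ± 3.73 to 187 ± 6.89 CPM, a ratio of 1.05. The sum over PDE4 did not overlap between groups (exact permutation p = 0.1), and the sum over the other 6 did (exact permutation p = 0.2), both two-sided over 3 against 3 libraries.

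The files give counts per gene and list the transcripts behind each, so isoform use could be read only from the mean transcript length that the count and the per-length level imply. This estimate was scaled on at least 1401 genes with a single transcript in each library. Pde4b, with 14 listed transcripts of 476 to 4304 bases, had implied lengths of 4057, 3848 and 3955 bases in vehicle and 4042, 3623 and 3768 bases in BRL, near its longest transcripts in both groups. Pde4d, with 19 transcripts of 481 to 4207 bases, had 3440, 3821 and 3291 bases in vehicle and 3087, 3337 and 3514 bases in BRL, which overlap. Pde7a varied between libraries, from 2438 bases in BRL replicate 2 to 3550 bases in BRL replicate 3, and its per-length level in those libraries was 19.5 and 12.0 TPM against 33.8 and 28.5 CPM. Such variation was not particular to Pde7a. Pde3b ranged from 4308 bases in BRL replicate 3 to 6272 bases in BRL replicate 1. Pde7b ranged from 2967 bases in vehicle replicate 2 to 4200 bases in BRL replicate 3. Transcript lengths came from GENCODE M21 for the transcripts it shares with the files, and errors of these estimates are not given in the files.

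Other genes of the cyclic AMP pathway were read from 9 lists of 82 genes, of which 81 were found in the files and 56 tested. Of the 56, 3 rose and 3 fell, against 1.01% and 1.79% of all tested genes, and their median log2 fold change was 0.008. The lists were chosen with earlier results of these data known, so this comparison is a description only. The genes that rose were Nr4a3, Sik1 and Pkia, and those that fell were Pln, Pkig and Adcy1. Nr4a3 and Pln passed in all 14 alternatives.

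Other phosphodiesterases were few. Of 14 listed, 13 were found, 11 of these fell below the filter, and neither tested gene passed: Pde6d, which encodes a prenyl-binding protein first found with the rod enzyme, had 20.2 ± 2.79 CPM with vehicle against 23.7 ± 2.80 CPM with BRL (edgeR adjusted p = 0.402), and the second was Pde5a, the cyclic GMP-specific enzyme (adjusted p = 0.525); neither had an unadjusted p under 0.05 or passed by the exact test, limma-voom or DESeq2. Pde2a was not analysed here. Of 16 partners and anchors of phosphodiesterases, 15 were tested and none passed by edgeR's quasi-likelihood test. Of the 15, 5 had an unadjusted p under 0.05, 2 passed by DESeq2, 1 by the exact test and 0 by limma-voom, where 22.4%, 5.23%, 7.84% and 2.32% of all genes did. The smallest p was that of Pde4dip, myomegalin, which binds PDE4D. It measured 133, 136 and 146 CPM in vehicle and 114, 87.98 and 96.2 CPM in BRL, with no overlap (log2 fold change −0.48 ± 0.12, SE, edgeR adjusted p = 0.069), and its adjusted p was 0.0424 by DESeq2, 0.0183 by the exact test and 0.000199 without BRL replicate 1. In that last setting 1240 genes rose and 1315 fell, against 122 and 216 with all 6 libraries.

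Upstream of the phosphodiesterases, Adrb1 was the only β-adrenergic receptor gene of 3 with enough counts to be tested and did not pass. It measured 13.5, 10.5 and 12.0 CPM with vehicle and 9.13, 33.6 and 28.1 CPM with BRL, so that BRL replicate 1 lay below every vehicle library and the other 2 above (log2 fold change 0.98 ± 0.42, SE, edgeR adjusted p = 0.214; without BRL replicate 1, 2.99e-05). Adrb3, the gene of the β3 receptor, had 3, 0 and 1 counts with vehicle and 3, 4 and 5 counts with BRL and was below the filter. Among G protein α subunits 3 of 4 were tested and none passed; Gnai2, an inhibitory subunit, had the smallest p (log2 fold change 0.39 ± 0.14, SE, edgeR adjusted p = 0.149; without BRL replicate 1, 0.000197). Each of these lists had 1 gene with an unadjusted p under 0.05 and 0 called by the exact test, limma-voom or DESeq2. In the fit without BRL replicate 1, where Adrb1 and Gnai2 passed, 1240 genes rose and 1315 fell, against 122 and 216 with all 6 libraries. Of 10 adenylyl cyclases 5 were tested and Adcy1, a calcium- and calmodulin-stimulated cyclase, fell. It measured 30.9, 25.8 and 28.8 CPM in vehicle and 20.1, 15.2 and 12.8 CPM in BRL, with no overlap (−0.83 ± 0.18, adjusted p = 0.0493). This call also lay at the threshold and held in 5 of 14 alternatives; it was lost without vehicle replicate 1, 2 or 3 or BRL replicate 2 or 3, and the adjusted p ranged from 0.000207 to 0.235.

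Downstream, the inhibitors of protein kinase A moved in opposite directions. Pkia, a peptide inhibitor of the catalytic subunit, measured 62.8, 57.1 and 63.2 CPM in vehicle and 111, 98.7 and 113 CPM in BRL (log2 fold change 0.82 ± 0.10, SE, edgeR adjusted p = 0.00662). Pkig, the γ inhibitor, measured 57.6, 57.1 and 56.4 CPM in vehicle and 25.4, 36.9 and 31.8 CPM in BRL (−0.86 ± 0.14, adjusted p = 0.0193). Neither gene's groups overlapped. The 5 tested subunits of the kinase itself did not pass, and neither did any of 4 tested genes of Epac and Popeye-domain proteins, where Bves had the smallest p (adjusted p = 0.393); 0 of the 4 had an unadjusted p under 0.05 or passed by the exact test, limma-voom or DESeq2. Pkia was lost without vehicle replicate 1, 2 or 3, and Pkig also without BRL replicate 3 (highest adjusted p 0.0666 and 0.120).

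Of 14 tested CREB family and cyclic AMP response genes, Nr4a3, an immediate early nuclear receptor, and Sik1, a kinase that restrains CREB coactivators, rose and none fell, with a list median of 0.42. Sik1 measured 84.3, 86.2 and 86.3 CPM in vehicle and 140, 243 and 224 CPM in BRL, with BRL replicate 1 lowest of its group (log2 fold change 1.24 ± 0.19, SE, edgeR adjusted p = 0.0146). Nr4a3 measured 6.05, 4.41 and 4.26 CPM with vehicle and 27.8, 33.2 and 28.7 CPM with BRL, the largest log2 fold change of the 56 genes tested, at 2.61 ± 0.18 (adjusted p = 0.000693). Sik1 did not pass without vehicle replicate 1, 2 or 3 or BRL replicate 3. Of 5 tested substrates and response genes of the cardiac pathway, Pln, whose product phospholamban restrains the calcium pump until protein kinase A phosphorylates it, fell from 195.0 ± 21.1 to 68.0 ± 8.21 CPM (−1.52 ± 0.13, adjusted p = 0.00183). Exons of Pln overlap those of Cep85l on the other strand, which had at most 94 counts.

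**Figure D4:**
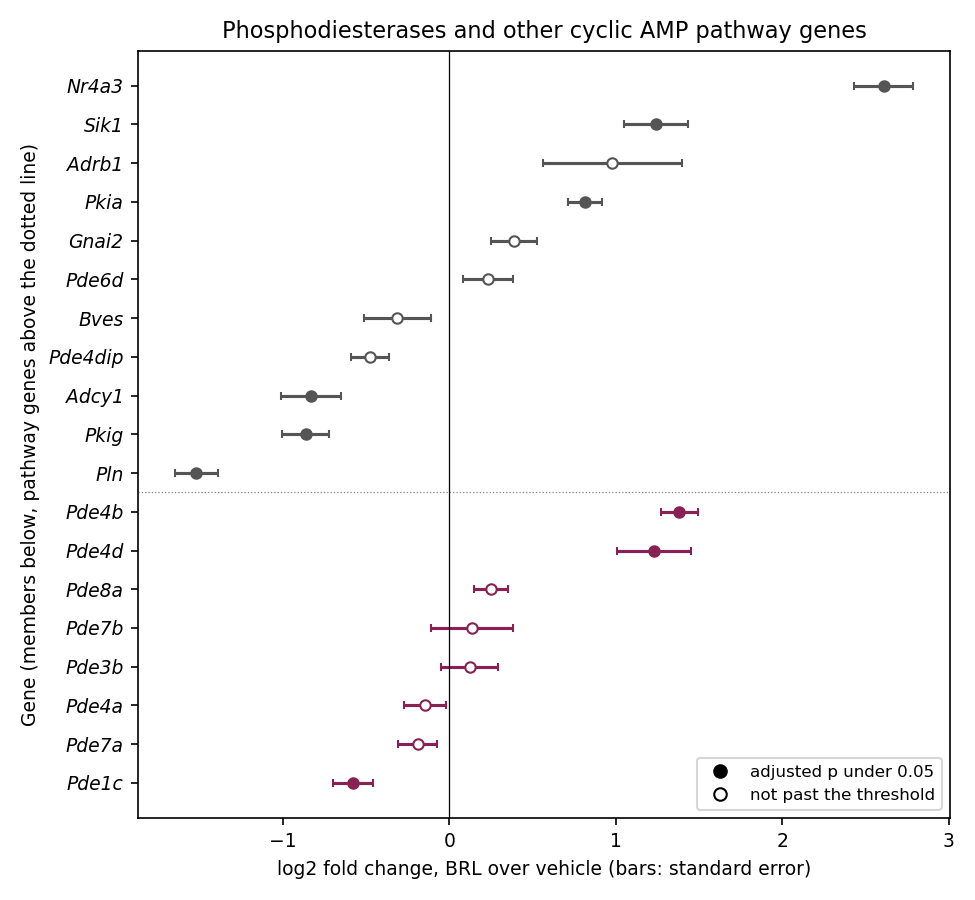
Log2 fold change of BRL over vehicle with its standard error for the 8 tested phosphodiesterases (below the dotted line) and for pathway genes that passed or had the smallest p of their list (above it); filled points have an adjusted p under 0.05. Pde4b (1.38) and Pde4d (1.23) lie to the right beside Sik1 (1.24), Pde1c (−0.58) lies to the left, and the other 5 phosphodiesterases lie between −0.19 and 0.25.

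The genes most like Pde4b over the 6 libraries, by Pearson correlation of log2 CPM among 9312 genes with a symbol and a mean of at least 10 CPM, were Eif2b4 (r = 0.999), Rab5c (0.996), Epop (0.996), Icosl (0.995) and Adam15 (0.993). Those most like Pde4d were Park7 (0.992), Tmed1 (0.992), Ftsj1 (0.988), Gm12751 (0.988) and Rpl10 (0.985). The 6 points fall into the 2 groups, so these correlations mainly carry the group difference and share library and depth. Of these 10 genes, Icosl differed most in size, at 13.0, 15.3 and 13.8 CPM in vehicle and 42.1, 55.3 and 53.2 CPM in BRL (log2 fold change 1.84, edgeR adjusted p = 0.00169), and Eif2b4 also passed (0.50, adjusted p = 0.0402), while the other 8 did not. Exons of Eif2b4 overlap those of Snx17 on the other strand, which had at most 422 counts. Exons of Tmed1 likewise overlap those of Dnm2, which had at most 781 counts. Strand use is not given, and the part of such reads in these genes was not tested.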

How the data were processed

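Per the submitters' processing notes, reads were processed with cutadapt, Bowtie, RSEM 1.17 and edgeR on NCBIM37; settings and strand use: not given in the sources used here. Each library's deposited file gives, per gene, an RSEM expected count and a fraction summing to 1. Expected counts share reads between similar loci. The deposited fraction was read as per-length abundance, because count over fraction followed transcript length (Spearman rho 0.929 to 0.937 over single-transcript genes). Symbols were matched for 88.4% of genes.

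After rounding, expected counts went through edgeR 4.0.16 under R 4.3.3 (filterByExpr, minimum 10; TMM factors; quasi-likelihood F-test, group as only term) with Benjamini-Hochberg adjustment over 12047 genes at 0.05. Standard errors divide the log2 difference by the root of F. Shares used exact permutation over libraries. Alternatives were other factors, no filter, DESeq2 1.42.0, limma-voom (limma 3.58.1), the exact test, a replicate block, leaving out mitochondrially encoded genes, and leaving out each library. Pathway genes named are those past the threshold, or the smallest p of a list; correlated genes are the 5 highest per gene on log2(CPM + 0.5). Members and lists were chosen with earlier results of these data known. Libraries of a group differed beyond sampling noise (chi-square per degree of freedom 1.69 to 4.2, and 76.8 and 89.1 for the pairs with BRL replicate 1). The deposited table over all samples was not used here.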

Additional observations from a re-analysis of the deposited data

How the results depend on the processing

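Of the log2 fold changes of the 8 tested phosphodiesterases under 14 alternatives, that of Pde7b changed sign (−0.018 without BRL replicate 3; −0.018 to 0.339 when each library was left out), and Pde4b passed throughout. In number of phosphodiesterases, 1 rose and 0 fell with the replicate number as a block (Pde4d had adjusted p = 0.0553), and 0 fell by DESeq2, by limma-voom and with mitochondrially encoded genes left out; leaving out each library, 1 to 3 rose and 0 to 1 fell. Over all genes, 282 rose and 330 fell with no filter on low counts, 418 and 527 by the exact test and 288 and 330 by DESeq2, 63 rose with the block, and 17 to 1240 rose and 15 to 1315 fell when each library was left out. The upper ends came without BRL replicate 1 and the lower ends without vehicle replicate 3. Of the other cyclic AMP pathway genes, 5 rose with no filter, 5 rose and 5 fell by the exact test and by DESeq2, and 1 to 12 rose and 1 to 8 fell when each library was left out. The rise in the PDE4 share was 10.2 percentage points from expected counts. It was 10.1 with the 13 genes found of the list of other phosphodiesterases added to the sum. The largest of these added genes was Pde6d (28.1 TPM in vehicle, 35.1 TPM in BRL), which encodes a prenyl-binding protein. Same-numbered libraries did not deviate together (r of 0.102, −0.013 and −0.012), so the block pairs libraries by number only. Low counts limit Pde4c and Pde3a. The causes were not tested.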

Other observations

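Of 20 other pathway genes below the filter on low counts that had any count, 2 were higher and 1 was lower in every BRL library on the CPM scale, where 2.28% and 5.08% of all such genes were. With so few genes and counts these shares are a description only, and the genes were picked with their values in view. Pde10a, a phosphodiesterase best known from the striatum, had 0 counts in each vehicle library and 9, 2 and 7 counts in the BRL libraries. Prkar2b, a regulatory subunit of protein kinase A, had 1, 2 and 2 counts in vehicle and 11, 8 and 8 counts in BRL. Pde8b, the relative of Pde8a, had 4, 4 and 4 counts in vehicle and 4, 2 and 5 counts in BRL, which do not overlap only once scaled to depth. In the fit with no filter, none of the 3 passed (edgeR adjusted p of 0.0819, 0.219 and 0.612).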
